A study of Rattus norvegicus with 2 samples.

Results

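The genes described here encode 5 chains of collagen VI, Col6a1, Col6a2, Col6a3, Col6a5 and Col6a6, and were taken by symbol from the gene tables of a single-cell RNA-seq study of skeletal muscle. They were 5 of 23373 genes in the table of a Sprague Dawley (SD) rat, and 10 of 49280 rows in that of a rat-mouse chimera, where each gene has a rat and a mouse row. The chimera was 1 of the adult animals born after mouse induced pluripotent stem cells (iPSCs) had been injected into SD rat morulae. The iPSCs carried a gene-edited Dmd mdx allele, so that dystrophin was back in frame, and a Pax7-nGFP reporter, and the edited cells were grown from picked clones. The control was 1 SD rat without injected cells, and neither age nor sex of the 2 animals is given by the labels. In both, muscle of the whole body was digested with collagenase and cells with a live-cell stain were sorted, which leaves out intact myofibers. There was 1 library per group and so no replicate check, and no p-value is given.

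Collagen VI is a microfibrillar collagen of the matrix around muscle fibers, vessels and nerves. Each monomer is built inside the cell from a Col6a1 chain, a Col6a2 chain and a long chain, which is Col6a3 in most tissues and Col6a5 or Col6a6 in some. Monomers are joined into dimers and tetramers before secretion, and then form beaded filaments outside the cell. Mutations of the human counterparts of Col6a1, Col6a2 and Col6a3 cause Ullrich congenital muscular dystrophy and Bethlem myopathy. In muscle the protein is known to come mainly from interstitial fibroblasts, and it is part of the niche of satellite cells, the stem cells of muscle.

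The SD rat library held 10117 barcodes with 70957559 unique molecular identifiers (UMIs), and the chimera library held 13299 barcodes with 118872850 UMIs. After filtering, 8812 SD rat cells and 11746 chimera barcodes remained. A chimera barcode was called rat with at most 20% of its UMIs on mouse rows (8241 cells) and mouse with at least 80% (1849 cells), and 1656 barcodes lay in between and entered no class. The 2 libraries shared 43 cell barcode sequences. Classes were named from marker genes, without any collagen VI gene among the genes used for clustering, and are called "-like" for that reason. Myocyte-like cells, with RNA of sarcomere genes, were found in all 3 populations, whereas no mural-like and no lymphatic endothelial-like cluster was found among the mouse cells. Levels are counts per 1e+06 UMIs (CPM), the summed UMIs of a gene over those of its own species in a class. A UMI stands for the 3′ end of 1 RNA, so levels are not divided by gene length. Brackets hold exact 95% intervals, Poisson for CPM and Clopper-Pearson for shares. They cover counting error only.

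The sequence just before the start of each chain's gene is shown because the RNAs of the chains followed each other across classes, as described further on. RefSeq entries of the rat build GRCr8 matched 4 of the 5 chains. The windows cover 250 bases upstream of the start and are written 5′ to 3′ on the gene's strand, with motif matches in capitals. Col6a1 is at chr20:11905440-11905689 on the plus strand, Col6a3 at chr9:98886959-98887208 on the minus strand and Col6a6 at chr8:115352162-115352411 on the minus strand.
Col6a1: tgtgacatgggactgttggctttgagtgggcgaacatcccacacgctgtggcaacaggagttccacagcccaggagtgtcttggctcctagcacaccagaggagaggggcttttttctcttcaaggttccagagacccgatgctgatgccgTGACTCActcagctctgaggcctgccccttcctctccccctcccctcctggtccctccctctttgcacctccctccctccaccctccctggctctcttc
Col6a3: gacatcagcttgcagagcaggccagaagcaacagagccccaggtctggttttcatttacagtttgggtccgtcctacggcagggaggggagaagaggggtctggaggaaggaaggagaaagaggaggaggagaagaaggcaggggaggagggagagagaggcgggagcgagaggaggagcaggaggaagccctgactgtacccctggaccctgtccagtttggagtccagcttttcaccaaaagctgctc
Col6a6: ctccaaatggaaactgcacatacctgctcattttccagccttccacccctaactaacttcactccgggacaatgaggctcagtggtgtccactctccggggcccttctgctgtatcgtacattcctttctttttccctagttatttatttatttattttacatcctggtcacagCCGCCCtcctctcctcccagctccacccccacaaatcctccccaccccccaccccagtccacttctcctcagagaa

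Motifs were searched on both strands (CAGCTG reads the same on either) in 33469 windows of the same length. The Col6a1 window held 1 AP-1 site (TGACTCA), which starts 99 bases before the gene's start, and 4.05% of all windows held such a match. The Col6a6 window held 1 GC box (GGGCGG, here read from the other strand), 76 bases before the start, and 30.5% of all windows held one. For Col6a5 there were 2 overlapping windows, and both held a CCAAT box (CCAAT, in 34.0% of all windows) and 2 E-boxes of the MyoD type (CAGCTG, in 12.0%). None of these motifs nor a TATA box (TATAAA, in 12.9%) was found in the Col6a3 window. The Col6a1, Col6a3 and Col6a6 windows were 60.0%, 58.4% and 51.6% G and C, beside a median of 51.2% over all windows. A match is a description of letters only.

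Most collagen VI RNA was in fibro-adipogenic progenitor (FAP)-like cells, the interstitial fibroblasts of muscle marked by Pdgfra, Dcn and Pi16. They held 85.8% of the summed Col6a1, Col6a2 and Col6a3 UMIs of the SD rat (85.6 to 85.9), 82.3% of those of the chimera rat cells (82.1 to 82.5) and 82.3% of those of the mouse cells (81.6 to 83.1). By cell number, FAP-like cells were 3203 of 8812 SD rat cells (36.3%), 2602 of 8241 chimera rat cells (31.6%) and 127 of 1849 mouse cells (6.87%). With the tenocyte or fibroblast-like cells, called tenocyte-like from here on, the share of each chain was 90.0% to 100% in every population. Before the classes, the SD rat library had 75379 Col6a1, 70363 Col6a2, 51813 Col6a3, 90 Col6a5 and 7673 Col6a6 UMIs. The chimera rat cells had 62599, 62285, 48113, 154 and 7830 UMIs of the same chains, and the mouse cells had 3891, 3285, 3078, 8 and 290.

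**Figure D1:**
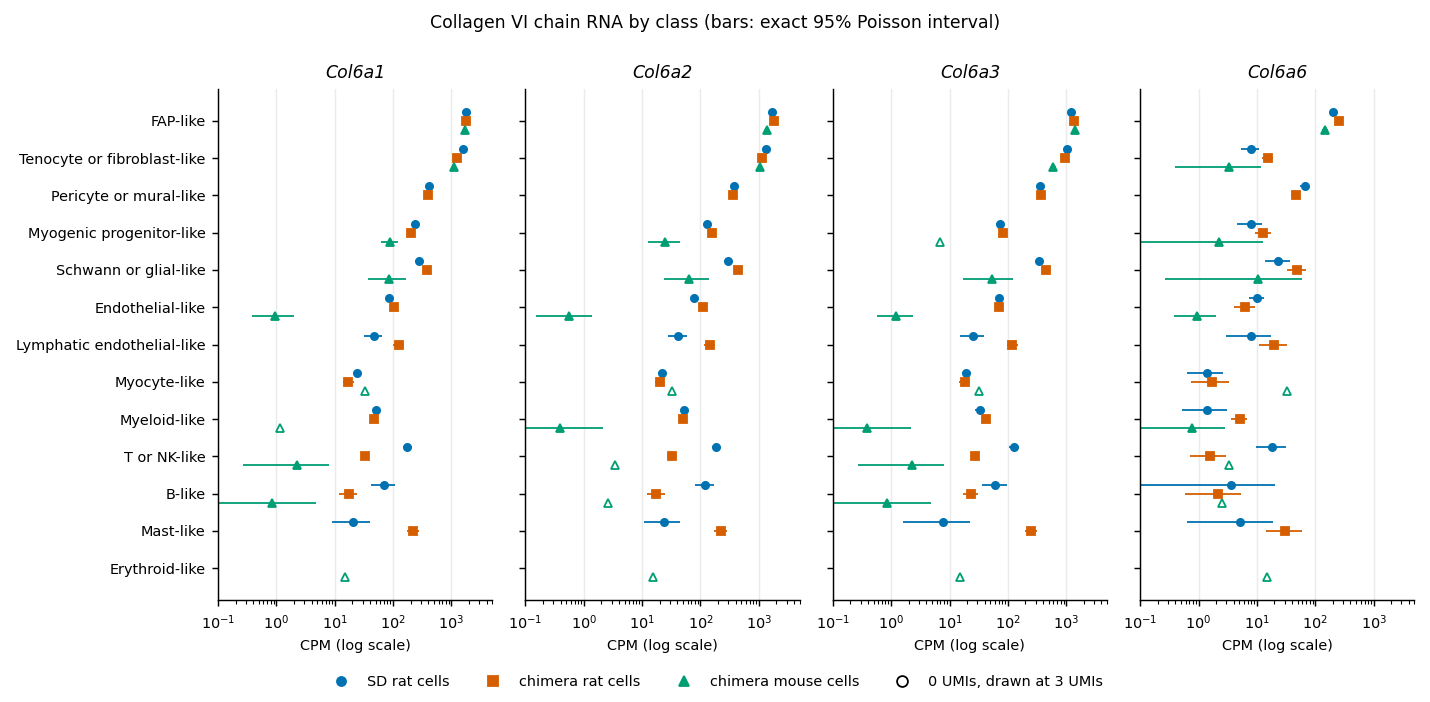
Summed level of 4 collagen VI chains in the named classes other than cycling cells, in CPM on a log scale, for SD rat cells (circles), chimera rat cells (squares) and chimera mouse cells (triangles). Bars are exact 95% Poisson intervals, and open symbols mark classes with 0 UMIs, drawn at the level of 3 UMIs. FAP-like cells are highest for each chain in each population, and tenocyte-like cells come next for Col6a1, Col6a2 and Col6a3. For Col6a6, mural-like cells come next in the SD rat and Schwann or glial-like cells (48.8 CPM) in chimera rat cells. Cycling cells, at 82.8 CPM of Col6a6 in chimera rat cells, are not drawn.

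In FAP-like cells the Col6a1 level was 1770.2 CPM in the SD rat (1757 to 1784), 1781 CPM in chimera rat cells (1766 to 1797) and 1690.4 CPM in mouse cells (1632 to 1750.5). Col6a2 was at 1679 CPM (1666 to 1692), 1801 CPM (1786 to 1817) and 1396 CPM (1343 to 1451) in the same order. For Col6a3, the most common long chain, the values were 1218 CPM (1207 to 1229), 1362 CPM (1349 to 1376) and 1433 CPM (1380 to 1489). The 3 populations thus lay within 1.5-fold of each other for each of these chains. Rat and mouse levels come from different gene rows and builds, whose capture can differ, so they are not on 1 scale. Per cell, the median Col6a1 count was 17 UMIs in the SD rat (quartiles 10 and 27), 17 in chimera rat cells and 20 in mouse cells. When each cell was thinned to 1000 UMIs, 76.1% of SD rat FAP-like cells had a Col6a1 UMI, 73.7% a Col6a2 UMI and 62.6% a Col6a3 UMI. All 3 chains were then found together in 1308 of 3199 such cells (40.9%), and none of them in 5.03%. In chimera rat cells all 3 were found in 43.3% of FAP-like cells at this depth, and in mouse cells in 51.6%.

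Tenocyte-like cells, marked by Tnmd, Fmod and Kera, had Col6a1 at 1574 CPM in the SD rat (1538 to 1611), 1223 CPM in chimera rat cells (1193 to 1254) and 1086 CPM in mouse cells (1005 to 1173). Their Col6a2 levels were 1325, 1112 and 1061 CPM, and their Col6a3 levels were 1047, 954 and 600 CPM (540.1 to 665 in the 40 mouse cells). In each population all of these were below the FAP-like level of the same chain, with intervals that did not overlap. This holds for whole classes, since the rat tenocyte-like clusters led by Kera had more Col6a1 than most FAP-like clusters, as given below. FAP markers were raised in the tenocyte-like clusters too, 11 in the mouse cluster and 3 to 8 in the rat clusters. The part of FAP RNA in the tenocyte-like values was not tested. The 2 kinds of tenocyte-like clusters differed in chain makeup. Of the 3 chains' UMIs, Col6a3 made up 24.6% in the SD rat cluster led by Kera and Fmod (368 cells) and 32.2% in the one with Emb, Tnmd and Thbs4 in front (178 cells). The Kera cluster of chimera rat cells had 27.2% (353 cells) and the cluster led by Tnmd and Thbs4 had 34.4% (232 cells).

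Col6a6, an alternative long chain, was in tenocyte-like cells at a much smaller part of its FAP-like level than Col6a3 was. It was at 201 CPM in SD rat FAP-like cells (197 to 206), 253 CPM in chimera rat (248 to 259) and 148 CPM in mouse cells (131 to 167). In tenocyte-like cells it was at 7.79 CPM (5.43 to 10.8), 15.2 CPM (12.0 to 19.0) and 3.32 CPM (0.402 to 12.0, from 2 UMIs). The tenocyte-like level of Col6a6 was thus 3.87% of the FAP-like level in the SD rat, whereas that of Col6a3 was 86.0%. Mural-like cells, the pericytes and smooth muscle cells of vessels, had Col6a6 at 66.0 CPM in the SD rat (55.2 to 78.3) and 46.2 CPM in chimera rat cells (38.2 to 55.5). Schwann or glial-like cells had 23.0 and 48.8 CPM, the latter from 30 UMIs of which 12 were in 1 cell, and cycling cells 41.9 and 82.8 CPM. The FAP-like cells held 95.2% of all Col6a6 UMIs in the SD rat, 93.1% in chimera rat cells and 95.5% in mouse cells.

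Col6a5, the other alternative long chain, was rare in all populations. FAP-like cells held 78 of the 90 SD rat UMIs, 143 of the 154 chimera rat UMIs and all 8 mouse UMIs, which gave 2.15 CPM (1.70 to 2.68), 4.97 CPM (4.19 to 5.85) and 4.28 CPM (1.85 to 8.44). A Col6a5 UMI was found in 61 of 3203, 108 of 2602 and 6 of 127 FAP-like cells. Of these cells, 50, 97 and 6 also had a Col6a6 UMI, that is 82.0%, 89.8% and 100%, whereas of the FAP-like cells without Col6a5 64.6%, 71.2% and 55.4% had one. Deeper cells have more of both, and this was not tested. In chimera rat tenocyte-like cells Col6a5 had 0 UMIs, which allows up to 0.578 CPM at 3 counts. The sixth chain gene of the files, Col6a4, which is no member here, had 8 UMIs in the SD rat library, and 20 on the rat row and 49 on the mouse row of the chimera library.

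Within the FAP-like cells, 1 cluster in each rat population stood above the others for every common chain. It was led by Smoc2, a secreted matrix-binding protein, and Cxcl14, a chemokine. This cluster of the SD rat (980 cells) had Col6a1 at 2594 CPM (2563 to 2626), Col6a2 at 2468 CPM, Col6a3 at 1846 CPM and Col6a6 at 365 CPM (353 to 377). The other 5 SD rat FAP-like clusters lay between 1258 and 1603.5 CPM for Col6a1. Among these was a cluster led by Sfrp4 (423 cells) that also had Smoc2 and Cxcl14 among its 10 leading genes. In chimera rat cells the cluster led by the same 2 genes (982 cells) had 2583 CPM of Col6a1 (2552 to 2614), 2571 of Col6a2, 1982 of Col6a3 and 397 of Col6a6 (385 to 409). There the other 3 FAP-like clusters lay between 1265 and 1360 CPM for Col6a1. Apart from the 2 clusters led by Smoc2 and Cxcl14, rat FAP-like clusters were below the Kera tenocyte-like cluster of their population. That cluster had Col6a1 at 1683 CPM in the SD rat and 1407 CPM in chimera rat cells. Col6a6 varied more between FAP-like clusters than the common chains did. It ranged 4.55-fold in the SD rat, from 80.1 CPM in the cluster led by Sfrp4 and Gpc3, and 2.86-fold in chimera rat cells, from 139 CPM in the cluster led by Sfrp4 and Col1a2. The same ranges were 2.06-fold and 2.04-fold for Col6a1. Both populations had a cluster with Ptx3, Mfap5 and Pi16, a marker of fibroblast progenitors, among its 10 leading genes. In the SD rat it had the lowest Col6a1 level (1258 CPM) and the second highest Col6a6 level (195.2 CPM), and in the chimera it had 1360 CPM of Col6a1 and 243 CPM of Col6a6, both second highest. Cluster limits were drawn on these same cells, so the values describe the clusters and are not a test.

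**Figure D2:**
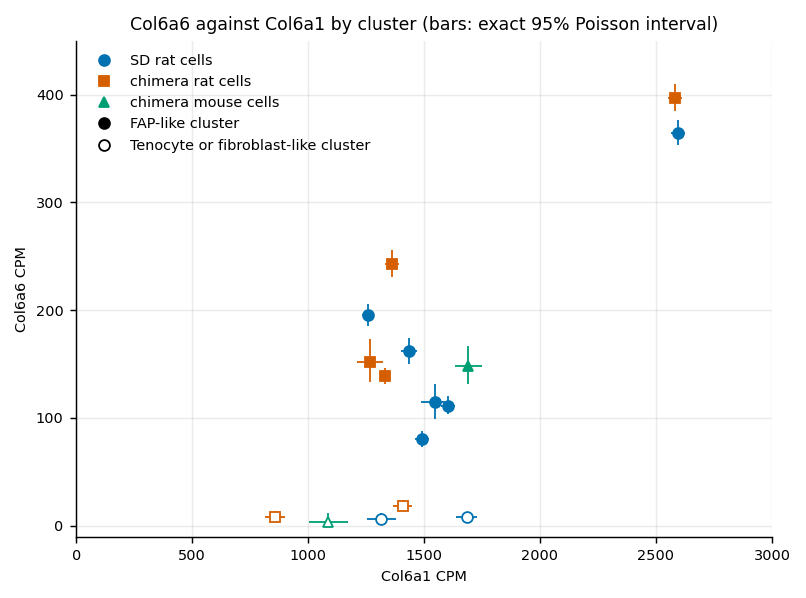
Col6a6 against Col6a1, in CPM, for each FAP-like cluster (filled) and tenocyte-like cluster (open) of SD rat, chimera rat and chimera mouse cells, with exact 95% Poisson intervals as bars. The 2 points at upper right are the clusters led by Smoc2 and Cxcl14. All tenocyte-like clusters lie at or below 18.8 CPM of Col6a6 while their Col6a1 level is 855 CPM or more.

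Mural-like cells had less of each chain than FAP-like cells, and their chain levels were a larger part of the FAP-like level than those of FAP genes were. Col6a1 was at 417 CPM in the SD rat (389 to 446) and 402 CPM in chimera rat cells (377 to 428), Col6a2 at 369 and 358 CPM, and Col6a3 at 354 and 368 CPM. RNA of lysed cells reaches every droplet, so the levels were set beside those of 4 FAP genes, Dcn, Lum, Dpt and Pdgfra. In the SD rat, mural-like cells had Col6a1, Col6a2, Col6a3 and Col6a6 at 23.6%, 21.98%, 29.1% and 32.8% of the FAP-like level. The FAP genes were at 7.66% (Dcn), 8.54% (Lum), 11.8% (Dpt) and 6.44% (Pdgfra). Those of the chimera rat had the chains at 18.3% to 27.0% and the FAP genes at 2.90% to 8.71%. Cells without any UMI of Dcn, Lum or Pdgfra, a subset chosen after the data had been seen, still had Col6a1 at 334 CPM in the SD rat (205 of 389 cells) and 329 CPM in chimera rat cells (260 of 416 cells).

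The mural-like cells were not uniform. Chimera rat cells formed 2 mural-like clusters. The one led by Rgs5 and Vtn, a pericyte pattern (244 cells), had Col6a1 at 725 CPM (673 to 779), and the one led by Tagln, Acta2 and Myh11, contractile genes of smooth muscle (172 cells), had it at 180 CPM (159 to 203). The Myh11 cluster also had 11 endothelial markers raised, with Fabp4 and Flt1 among its 10 leading genes, and the Rgs5 cluster had 3 raised. Col6a6 was at 83.1 and 20.9 CPM in these clusters. Col6a3 made up 29.6% of the 3 chains' UMIs in the Rgs5 cluster (27.7 to 31.7) and 40.1% in the Myh11 cluster (36.7 to 43.5). In the SD rat, with 1 mural-like cluster, cells with a Myh11 UMI had 34.3% (31.7 to 37.1) and cells without one 27.3% (24.6 to 30.1), a split made after the data had been seen. That SD rat cluster had 10 endothelial markers raised, also with Flt1 and Fabp4 among its leading genes. The part of endothelial RNA in the mural-like values was not tested.

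**Figure D3:**
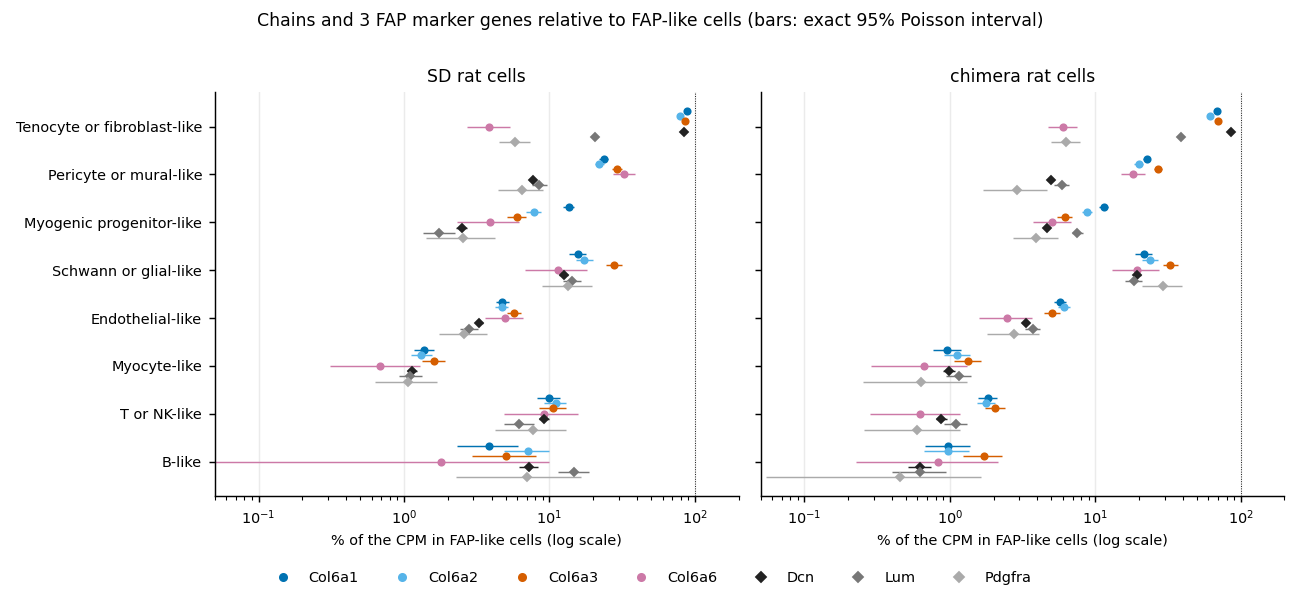
Level of 4 chains (circles) and of the FAP genes Dcn, Lum and Pdgfra (diamonds) in other classes as a percentage of the level in FAP-like cells, on a log scale, for SD rat and chimera rat cells, with exact 95% Poisson intervals of the class. In mural-like cells the 4 chains lie to the right of the 3 FAP genes in both panels. In myogenic progenitor-like cells the 4 chains do so in the SD rat, and only Col6a1 and Col6a2 do so in chimera rat cells. Dpt, which was above Col6a1 in these cells of both populations, is not drawn. In the T or NK-like cells of the SD rat the Col6a1 value of 9.91% is close to the 9.22% of Dcn.

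Myogenic progenitor-like cells, the satellite cells and their progeny marked by Pax7, Myf5 and Cdh15, had a chain makeup of their own. In the SD rat they had Col6a1 at 240.3 CPM (221 to 261), Col6a2 at 131 CPM (116 to 146) and Col6a3 at 72.7 CPM (62.1 to 84.6). Chimera rat cells had 203 CPM (189 to 219), 159 CPM (146 to 172) and 84.1 CPM (74.9 to 94.1). The 46 mouse cells had 39 UMIs of Col6a1, 11 of Col6a2 and 0 of Col6a3, that is 88.5 CPM (62.9 to 121) and 24.95 CPM (12.5 to 44.6) for the first pair, and up to 6.81 CPM at 3 counts for Col6a3. Col6a1 made up 54.2% of the 3 chains' UMIs in SD rat cells (51.1 to 57.3), 45.6% in chimera rat cells (43.1 to 48.1) and 78.0% in mouse cells (64.0 to 88.5). FAP-like cells of the same populations had 37.9%, 36.0% and 37.4%. The Col6a3 share was 16.4% (14.2 to 18.8), 18.8% (17.0 to 20.9) and 0 of 50 UMIs, which allows up to 6%, beside 26.1%, 27.6% and 31.7% in FAP-like cells. The shares of both chains thus lay outside the FAP-like intervals in each population, with Col6a1 higher and Col6a3 lower. The levels in chimera rat cells depended on which cells were taken: Col6a1 was at 124 CPM with the species call at 90% and 112 CPM at clustering resolution 0.5, and Col6a3 at 46.5 CPM by a majority call, 53.2 CPM with at least 1000 UMIs per barcode and 46.6 CPM at resolution 2.

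Several measures bear on FAP RNA in these cells. The Col6a1 level was 13.6% of the FAP-like level in the SD rat (12.5 to 14.8), whereas Dcn, Lum and Pdgfra were at 2.49%, 1.75% and 2.55%. In chimera rat cells the values were 11.4% for Col6a1 and 4.69%, 7.52% and 3.94% for the 3 FAP genes. Dpt, the fourth gene of that list, was at 31.2% and 20.3%. Col6a1 was thus above the 3 other genes and below Dpt in both rat populations. Dpt was not used to choose the cells below, and the reason for its level was not tested. In the 216 of 350 SD rat cells without Dcn, Lum or Pdgfra UMIs, Col6a1 was at 216 CPM (192 to 241), Col6a2 at 103.5 CPM and Col6a3 at 43.8 CPM, and Col6a1 made up 59.4% (54.98 to 63.7) and Col6a3 12.1% (9.37 to 15.2). In 280 of 451 chimera rat cells chosen the same way, Col6a1 was at 104 CPM (90.6 to 118) with a share of 53.7%, and Col6a3 had a share of 13.002%. None of the 46 mouse cells had a UMI of these 3 genes. In both rat populations the makeup was thus farther from that of FAP-like cells in the cells without RNA of these 3 genes than in the whole class, and in the chimera the Col6a1 level was lower. By the same choice, endothelial-like cells of the SD rat had Col6a1 at 37.6 CPM (30.3 to 46.2) and T or NK-like cells at 23.5 CPM (10.1 to 46.3).

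At equal depth of 1000 UMIs per cell, 23.8% of SD rat myogenic progenitor-like cells had a Col6a1 UMI (19.4 to 28.6), 14.2% a Col6a2 UMI and 6.38% a Col6a3 UMI (4.04 to 9.50), beside 59.1%, 43.7% and 19.4% without thinning. Chimera rat cells had 13.7%, 11.2% and 5.81%, and mouse cells 8.89% (2.48 to 21.2), 6.67% and 0 of 45. The background classes had similar shares of Col6a3 in the SD rat, namely 6.32% of T or NK-like and 5.71% of B-like cells (median 6537 and 3621 UMIs, and 5925 in myogenic progenitor-like cells). For Col6a1 they had 7.37% and 0%. The level of Col6a1 also differed within the class. SD rat cells with a UMI of Myog, a factor of differentiating myocytes, had 54.7 CPM (38.7 to 75.1, 60 cells), and cells without one had 321 CPM (294 to 350, 290 cells). For chimera rat cells these values were 106 CPM (89.9 to 125) and 264 CPM (243 to 287). Of the 147 Col6a1 UMIs in chimera rat cells with Myog, 49 were in 1 cell. Over the whole SD rat class, the largest count in 1 cell was 38 of 300 UMIs for Col6a2 and 34 of 167 for Col6a3. Cells with a UMI of Pax7, the factor of satellite cells, had a Col6a1 share of 61.5% (57.1 to 65.7) against 47.0% in cells without one in the SD rat, and 53.8% (49.1 to 58.5) against 42.4% in chimera rat cells. In mouse cells 37 of the 39 Col6a1 UMIs were in the 33 cells with Pax7. Deeper cells are more often found with a given gene, and the part of depth in these splits was not tested.

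**Figure D4:**
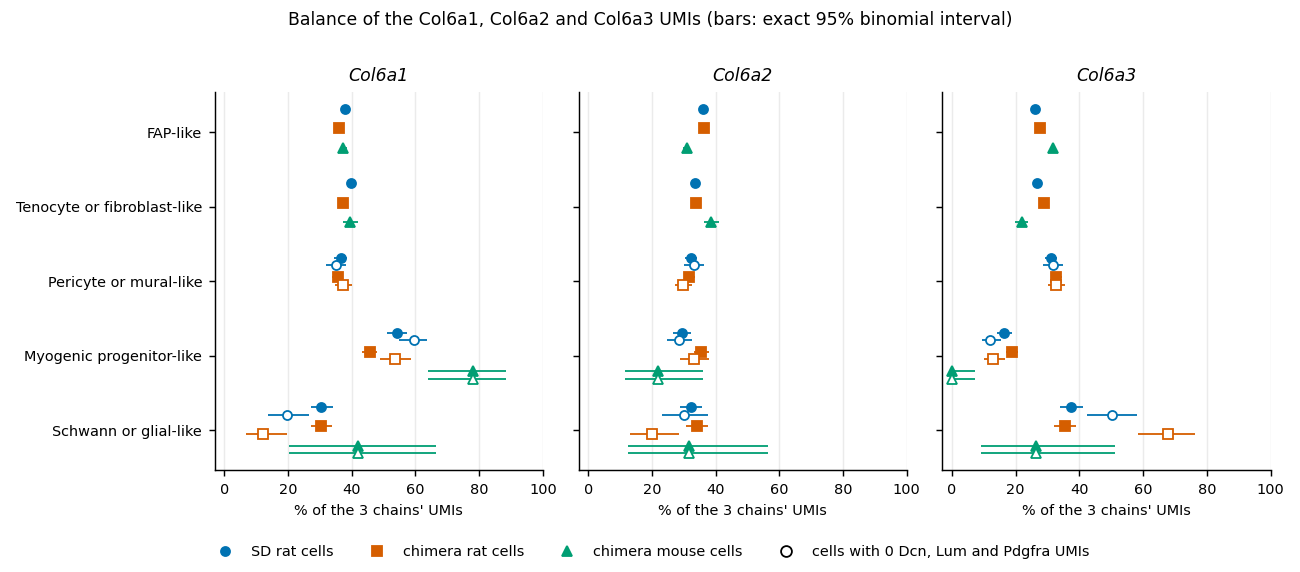
Share of each chain in the summed Col6a1, Col6a2 and Col6a3 UMIs of 5 classes, in percent, for SD rat (circles), chimera rat (squares) and chimera mouse cells (triangles), with exact 95% binomial intervals. Filled symbols are all cells of a class and open symbols the cells without Dcn, Lum and Pdgfra UMIs. Myogenic progenitor-like cells lie to the right for Col6a1 and to the left for Col6a3 in each population, and the Schwann or glial-like cells of both rat populations lie to the right for Col6a3.

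Schwann or glial-like cells, the cells around nerve fibers, marked among others by Sox10, went the other way. Col6a3 was the chain with most UMIs, at 339 CPM in the SD rat (300 to 383) and 447 CPM in chimera rat cells (396 to 503). Col6a1 was at 276.5 and 384 CPM and Col6a2 at 292 and 431 CPM. Col6a3 made up 37.4% of the 3 chains' UMIs in the SD rat (33.8 to 41.1) and 35.4% in chimera rat cells (32.1 to 38.9), above the 26.1% and 27.6% of FAP-like cells. FAP genes were also found here, with Dcn at 12.5% and 19.5% of its FAP-like level, Pdgfra at 13.5% and 29.2%, and Col6a1 at 15.6% and 21.5%. Single cells weighed heavily too, as 1 SD rat cell held 59 of the 216 Col6a1 UMIs and 1 chimera rat cell 73 of 236. With each cell thinned to 1000 UMIs, chimera rat cells had Col6a1 at 102 CPM and Col6a2 at 163 CPM, and SD rat cells had Col6a1 at 183 CPM. The mean of per-cell CPM gave 163 CPM of Col6a1 in chimera rat cells and 167 CPM of Col6a2 in SD rat cells. Among cells without Dcn, Lum or Pdgfra UMIs the Col6a3 share was larger, at 50.3% in the SD rat (42.4 to 58.2, 81 of 147 cells) and 67.8% in chimera rat cells (58.5 to 76.2, 66 of 100 cells). The Col6a3 level there was 231 CPM (184 to 287) and 252 CPM (199 to 315), while Col6a1 was at 90.2 and 45.3 CPM. The 26 mouse cells had 8, 6 and 5 UMIs of Col6a1, Col6a2 and Col6a3, all in the 8 cells with a UMI of Scn7a, and a Col6a3 share of 26.3% (9.15 to 51.2), too few UMIs to tell it from the FAP-like share.

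The Schwann or glial-like cluster led by Cadm2 and Scn7a had a Col6a3 share of 43.7% in the SD rat (39.2 to 48.3, 111 cells) and 35.5% in chimera rat cells (32.0 to 39.1, 71 cells). At equal depth, 21.4% of SD rat and 26.5% of chimera rat Schwann or glial-like cells had a Col6a3 UMI, and 14.5% and 9.18% had a Col6a1 UMI. Cells with a Col6a3 UMI and neither of the other two chains were 20 of 131 and 17 of 98. Cells with only Col6a2 were 18 and 4, and those with only Col6a1 were 13 and 2, so that in the SD rat Col6a3 was hardly apart from Col6a2 by this count.

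The remaining classes had low levels. Endothelial-like cells had Col6a1 at 83.9 CPM in the SD rat and 102 CPM in chimera rat cells, and at 0.960 CPM in mouse cells (7 UMIs in 1078 cells). In the SD rat the chains were at 4.69% to 5.74% of the FAP-like level and the 4 FAP genes at 2.59% to 3.30%. Myocyte-like cells, with RNA of myofibers, had Col6a1 at 24.2 CPM (20.6 to 28.3) and 17.1 CPM (13.6 to 21.3), and 0 UMIs of any chain in the 29 mouse cells, which allows up to 32.6 CPM. T or NK-like cells, which should lack the chains, had Col6a1 at 175 CPM in the SD rat, where the FAP genes were at 6.21% to 11.8% of the FAP-like level and Col6a1 at 9.91%, and at 32.4 CPM in chimera rat cells. B-like cells had 68.5 and 17.5 CPM of Col6a1. The SD rat values of these classes rest on few cells, since 1 T or NK-like cell held 33 of 124 Col6a1 UMIs and 1 B-like cell 10 of 19. Among mouse cells, T or NK-like, B-like and myeloid-like cells had at most 2.25 CPM of any chain. Mast-like cells of the chimera rat had 222 CPM of Col6a1, with 30 of 65 UMIs in 1 of 53 cells, and 20.7 CPM in the SD rat. Cycling cells had Col6a1 at 764 CPM in the SD rat, 947 CPM in chimera rat cells and 25.2 CPM in mouse cells. These are not like cells. The rat cycling clusters had 11 and 10 of 12 FAP markers and 9 and 8 myogenic progenitor markers raised. The mouse cycling cluster had 12 of 12 endothelial markers raised.

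The chains were then compared between rat cells of the chimera and of the SD rat within a class, on the scale of log2(CPM + 1). Animal, library and mapping reference cannot be told apart in this comparison, since the chimera was mapped to rat and mouse genes together. In FAP-like cells the log2 ratio of chimera over SD rat was 0.01 for Col6a1 (-0.0077 to 0.03), 0.10 for Col6a2 (0.08 to 0.12), 0.16 for Col6a3 (0.14 to 0.18), 0.33 for Col6a6 (0.28 to 0.38) and 0.92 for Col6a5 (0.62 to 1.22). The median over all genes tested was 0.08. Col6a5 was the 1 member of 5 past 1.5-fold, from 78 SD rat and 143 chimera rat UMIs, and 9.23% of all 11249 genes tested in FAP-like cells were past it. The common chains differed from that median by -0.07, 0.03 and 0.09. Rat FAP-like cells of the chimera with at most 10% of UMIs on mouse rows (501 of 2602) had Col6a6 at 178 CPM (168 to 189), and the rest had it at 275.5 CPM (269 to 282). The Col6a6 ratio thus moved with the share of mouse-row UMIs, whose part in it was not tested. With the species call at 90%, and the cells clustered again, it was -0.16. The Col6a5 ratio was then 0.44, and with cells thinned to 1000 UMIs it was 0.11, both below 1.5-fold. In sums over a class, fewer cells with a chain and less RNA per cell cannot be told apart.

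In tenocyte-like cells the log2 ratio was -0.36 for Col6a1 (-0.41 to -0.31), -0.25 for Col6a2, -0.13 for Col6a3 and 0.88 for Col6a6 (0.34 to 1.43). Col6a6, with 79 against 35 UMIs, was the 1 of 4 members tested past 1.5-fold, beside 14.8% of all genes there. With at least 1000 UMIs per barcode the Col6a6 level in chimera rat tenocyte-like cells was 9.08 CPM in place of 15.2 CPM, beside 7.49 CPM in the SD rat, and the difference was no longer past 1.5-fold. No member passed 1.5-fold in mural-like cells (0 of 4, with 19.3% of all genes), myogenic progenitor-like cells (0 of 3, with 13% of all genes) or Schwann or glial-like cells (0 of 3, with 16.4% of all genes). In myogenic progenitor-like cells the ratio was -0.24 for Col6a1 (-0.40 to -0.08), 0.28 for Col6a2 (0.08 to 0.48) and 0.21 for Col6a3 (-0.07 to 0.49). The FAP genes Lum (2.28) and Dcn (1.10) were higher in the chimera in the same cells, and Dpt was at -0.52. Among cells without Dcn, Lum or Pdgfra UMIs the order turned for Col6a2 (64.4 CPM in the chimera and 103.5 CPM in the SD rat) and Col6a3 (25.1 and 43.8 CPM). In Schwann or glial-like cells the ratios of the 3 common chains were 0.40 to 0.56, and those of Col6a1 and Col6a2 rest on few cells. Thinned to 1000 UMIs per cell, Col6a1 was lower in the chimera (102 against 183 CPM), as was Col6a2 (163 against 229 CPM), while Col6a3 was higher (439 against 252 CPM). Without Dcn, Lum or Pdgfra UMIs the chimera had 45.3 against 90.2 CPM of Col6a1, 74.4 against 138 CPM of Col6a2 and 252 against 231 CPM of Col6a3. Col6a6 was lower in mural-like cells of the chimera, at -0.50 (-0.87 to -0.14).

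**Figure D5:**
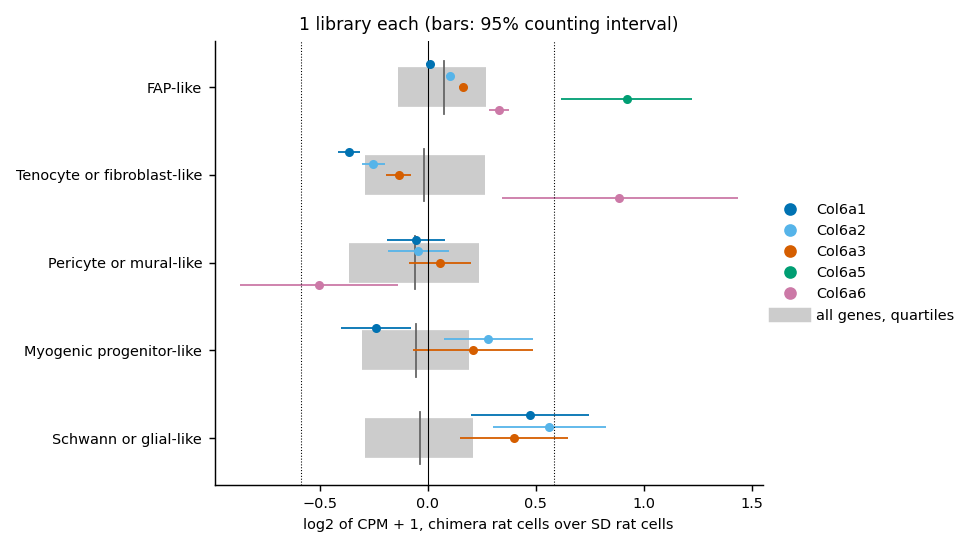
Log2 ratio of CPM + 1 in chimera rat over SD rat cells for the members with enough UMIs in 5 classes, with 95% counting intervals. Grey boxes span the quartiles of all genes tested in the class with a line at the median, and dotted lines mark 1.5-fold. Col6a5 in FAP-like cells and Col6a6 in tenocyte-like cells lie past the right dotted line.

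Few UMIs of the chains lay on the row of the other species in rat cells and in mouse FAP-like cells, and more did over all mouse cells. Among rat cells of the chimera, 0.0686% of the Col6a1 UMIs of both rows were on the mouse row, 0.160% of Col6a2, 0.236% of Col6a3 and 1.32% of Col6a6, beside a median of 4.39% over 11683 gene pairs. No member passed 5%, and 46.2% of all pairs did. Among mouse cells the share on the rat row was 6.67% for Col6a1, 7.44% for Col6a2, 6.84% for Col6a3 and 13.7% for Col6a6, beside a median of 2.27%, so all 4 members tested passed 5%, as 15.6% of all pairs did. Of the 278 rat-row UMIs of Col6a1 in mouse cells, 166 were in endothelial-like cells, which had 7 on the mouse row, and 20 in FAP-like cells, where they were 0.630% of both rows. For Col6a2, Col6a3 and Col6a6 the rat-row share in mouse FAP-like cells was 0.610%, 0.852% and 1.77%. The rat-row level in mouse cells was 21.5 per 1e+06 UMIs of both species in endothelial-like (18.4 to 25.03), 37.1 in tenocyte-like (23.5 to 55.6), 10.5 in FAP-like, 9.13 in B-like and 8.35 in myeloid-like cells.

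The partners of the chains were given by lists chosen with earlier results of these data known. Of 14 genes of collagen folding and modification, 13 were present in the rat tables, and 11 had their highest level in FAP-like or tenocyte-like cells of the SD rat, 12 in chimera rat cells and 14 of 14 in mouse cells. In SD rat FAP-like cells the highest were Ppib, a prolyl isomerase (1334.5 CPM), Serpinh1, a collagen chaperone (1134 CPM), and P4hb, a subunit of prolyl 4-hydroxylase (370.5 CPM). The median log2 ratio of chimera over SD rat FAP-like cells over the 13 was -0.04, and P4ha3, another hydroxylase subunit, was the 1 past 1.5-fold, at -1.02 from a low level (3.99 against 9.14 CPM). Of all genes tested in FAP-like cells, 9.23% were past it. The proteases that can cut collagen VI or its released domain were highest in FAP-like or tenocyte-like cells for 3 of 4. In SD rat FAP-like cells Mmp2 was at 626 CPM, Mmp14 at 287 CPM and Bmp1 at 124 CPM. None of the 4 passed 1.5-fold between the rat populations in FAP-like cells, beside the same 9.23% of all genes.

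Receptors had another pattern. Of 10 listed, 4 were highest in FAP-like or tenocyte-like cells in both rat populations and 3 in mural-like cells. Itgb1, the integrin subunit shared by the collagen receptors, was at 991 CPM in SD rat mural-like and 695 CPM in FAP-like cells. Antxr2, the anthrax toxin receptor that takes up collagen VI, was at 687 CPM in myeloid-like and 259 CPM in FAP-like cells. Cspg4, the proteoglycan NG2, was at 86.0 CPM and Mcam at 67.5 CPM in mural-like cells. Itga1, a collagen-binding integrin subunit, was highest in Schwann or glial-like cells (299.5 CPM), as was the matrix partner Vwa1 (206 CPM). Of 12 matrix partners, 11 were present in the rat tables and 7 of these were highest in FAP-like or tenocyte-like cells, 2 in mural-like cells, and Matn1 had 0 UMIs, with Dcn at 8932 CPM, Col4a1 at 1776 CPM and Lum at 1663 CPM in SD rat FAP-like cells. None of 7 receptors and none of 10 matrix partners tested passed 1.5-fold between the rat populations in FAP-like cells, beside 9.23% of all genes.

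Across the 13 named classes of the SD rat, levels of the common chains followed each other, with Pearson's r of log2(CPM + 10) of 0.986 between Col6a1 and Col6a2, 0.976 between Col6a1 and Col6a3 and 0.988 between Col6a2 and Col6a3. Col6a6 had 0.733 to 0.747 with these. The classes share 1 library and its background RNA, and r is a description. The 3 other genes most like Col6a1 were Plekhh2 (0.977, and 0.911 in chimera rat cells), Olfml1 (0.972 and 0.948) and Chpf (0.967 and 0.911). For Col6a2 they were Loxl2, a lysyl oxidase (0.976 and 0.957), Mmp2 (0.967 and 0.947) and Bgn, a small proteoglycan (0.966 and 0.962). For Col6a3 they were Aspn (0.973 and 0.947), Cilp (0.967 and 0.917) and Loxl2 (0.966 and 0.950). Col6a6 was closest to Fst, an inhibitor of activin and myostatin (0.956 and 0.870), Col4a4, a basement membrane collagen (0.954 and 0.9703), and Pappa1 (0.942 and 0.911).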

How the data were processed

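Processed files of 2 libraries were used. The deposited matrices hold whole-number UMI counts that the authors obtained with Cell Ranger 7.1.0 per the labels, with the builds mRatBN7.2 and GRCm39 named in the submitters' processing notes. The chimera was counted on rat and mouse genes and EGFP (49280 rows), the SD rat on 23373 rat genes. A read that maps to both species can be lost in the chimera and not in the SD rat.

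Barcodes with at least 500 UMIs, 200 genes and at most 20% mitochondrial UMIs were kept, and barcodes that Scrublet (scanpy 1.11.5) predicted as doublets, 428 of the chimera and 168 of the SD rat, were removed. Populations were clustered separately on 2000 variable genes without collagen VI genes (30 components, 15 neighbours, leidenalg 0.10.2, resolution 1). Clusters were named from marker lists of 15 classes, by a rule set after the clusters had been seen: at least 3 raised markers (in at least 10% of cells and 2-fold above the other cells, with 10 CPM added), and no other class ahead among the 10 leading genes. A leading gene had to be in at least 1.5 times the median share of cells of the other clusters, since globin RNA was in a like share everywhere. Clusters led by MHC class II genes, 98 SD rat and 215 chimera rat cells, stayed unnamed where no marker of the class was among those 10 genes. Mouse clusters of 83 and 32 cells, also led by MHC class II genes, held such a marker and were named myeloid-like. The names are rebuilt and not those of the study.

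The members and lists were chosen with earlier results of these data known. Named genes were the members, the 3 highest members of each list in the class described, and the 3 genes with the highest Pearson r to each chain with at least 200 UMIs, among genes with at least 500 UMIs. Splits by Myog, Pax7, Myh11 and Scn7a and the subset without Dcn, Lum and Pdgfra were made after the data had been seen, and so were the genes named outside the rule. Genes with at least 100 UMIs in a class over both libraries entered the ratio of CPM + 1, with intervals from the exact binomial interval of the 2 counts. These intervals were tried on simulated Poisson counts only, the model that they assume. That trial cannot show how they do where 1 cell holds many of the UMIs. Alternatives changed the species call, doublets, filters, clustering, totals, depth, weighting, single cells and pseudocounts. Some results on Schwann or glial-like cells are not reported here.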

Additional observations from a re-analysis of the deposited data

Results flagged for a closer look

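Chimera barcodes with mixed species, which entered none of the comparisons, held collagen VI RNA. The 1656 barcodes had Col6a1 at 333.0 CPM of both rows together (323 to 343), Col6a2 at 299.7 CPM, Col6a3 at 251 CPM and Col6a6 at 45.9 CPM. Col6a1 had 3777 UMIs on the rat row and 322 on the mouse row. Both rows of Col6a1 were found in 18 barcodes, those of Col6a2 in 17, those of Col6a3 in 18 and those of Col6a6 in 13, of 597, 557, 617 and 245 barcodes with any UMI of the chain.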

How the results depend on the processing

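No paired analysis was possible because each group has 1 library, and for the same reason no replicate could be left out. FAP-like cells had the highest level of Col6a1, Col6a2, Col6a3 and Col6a6 in each population, under each of the alternatives run. Of 600 recomputed levels, 553 were within 1.5-fold, and 33 moved farther, all of them in myogenic progenitor-like, Schwann or glial-like and tenocyte-like cells. A further 9 had a main value of 0, and the remaining few fell to 0, so that no fold was given for them. With the species call at 90%, after which cells were clustered and named again, the FAP-like log2 ratios turned for Col6a2 (-0.014) and Col6a6 (-0.16) and were -0.067, 0.075 and 0.44 for Col6a1, Col6a3 and Col6a5. Col6a3 then made up 20.9% in rat myogenic progenitor-like cells, and mouse FAP-like cells held 84.6% of the common chains. Here and below the cause was not tested.

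The FAP-like share of the common chains moved as follows. With the species called by majority it was 81.7% in chimera rat and 81.0% in mouse cells. With doublets kept it was 82.9% in the SD rat and 76.6% in chimera rat cells. With 1000 UMIs per barcode, or resolution 0.5, chimera rat cells had 82.6%, and with resolution 2 the SD rat had 85.6%. With the other-species row added, mouse cells had 77.1%. At thinned depth the SD rat had 81.6% and chimera rat cells 79.6%. Means of per-cell CPM gave 80.2%, 79.5% and 81.4%, and removal of the cell with most UMIs per class gave 86.3%, 83.1% and 83.8% in the SD rat, chimera rat and mouse cells.

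The Col6a3 share in chimera rat myogenic progenitor-like cells was 14.6% by majority call, 16.7% with doublets kept, 15.8% with 1000 UMIs, 22.3% at resolution 0.5, 15.1% at resolution 2 and 16.8% with collagen VI genes in the clustering. In SD rat cells it was 13.2% thinned and 14.1% by per-cell means. Without Dcn, Lum and Pdgfra UMIs, an alternative chosen after seeing the data, it was 12.1% in SD rat and 13.002% in chimera rat cells. These values are below the 26.1% and 27.6% of FAP-like cells. Without thinning, 59.1%, 45.7% and 41.3% of SD rat, chimera rat and mouse cells had Col6a1, and 19.4% and 18.6% of the rat cells Col6a3.

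Thinned, the FAP-like log2 ratios were -0.0095 for Col6a1, 0.13 for Col6a2, 0.10 for Col6a3 and 0.11 for Col6a5, and per-cell means gave 0.13 for Col6a3 and 0.26 for Col6a6. Genes past 1.5-fold numbered 1038 in FAP-like cells, 586 with at least 500 UMIs and 313 with 10 CPM added. The same counts were 1010, 300 and 481 in tenocyte-like and 751, 195 and 452 in myogenic progenitor-like cells. With at least 500 UMIs, 259 of the 1073 in mural-like and 62 of the 394 in Schwann or glial-like cells remained in number. With 1 CPM in place of 10 CPM, 2 of the 3 genes closest to Col6a1 and 1 of the 3 for each other chain stayed.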

Other observations

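Cycling cells, which were kept apart as a class, had all 3 common chains at equal depth in 7 of 107 SD rat cells (6.54%), 25 of 108 chimera rat cells (23.1%) and 1 of 67 mouse cells (1.49%). As given above, the rat and mouse cycling cells had markers of different cell types. In the mouse, 20 of their 22 Col6a1 UMIs were in 1 cell. The unnamed clusters led by MHC class II genes had Col6a1 at 167 CPM in the SD rat, where 1 cell held 46 of 185 UMIs, and at 61.3 CPM in chimera rat cells. Lymphatic endothelial-like cells had Col6a1 at 46.1 CPM in the SD rat and 126 CPM in chimera rat cells, where 1 of 82 cells held 36 of 89 UMIs. Erythroid-like cells, found among the mouse cells only, had 0 UMIs of each chain in 23 cells, which allows up to 15.1 CPM.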
